A study of Mus musculus with 16 samples.

Results

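The Ppm1 phosphatase genes Ppm1d, Ppm1e and Ppm1h were described across 16 RNA-seq libraries of embryonic mouse heart ventricle. They were chosen by symbol from a table of TPM, a transcript's share of its library corrected for its length and scaled to a fixed total, and they are the 3 of its 5921 rows whose symbol begins with Ppm1. The choice was made with the differences between knockout and control ventricles already known, so those differences are given as a description with no test. Ppm1 genes on chromosomes other than 1, 10 and part of 11 were not analysed here.

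The study took ventricles at embryonic day E11.5 from 2 mouse lines in which Xmlc2-Cre, a Cre transgene driven in cardiomyocytes, removes floxed sequence of Atf4, a transcription factor of the integrated stress response. In one line exons 2 and 3 of Atf4 are floxed, and in the other exon 2 alone. Each line had 4 libraries labelled control and 4 labelled conditional knockout (cKO), described by the submitters as biological replicates. The exon 2-3 libraries form the submitters' first batch and the exon 2 libraries the second, and the effects of line and of batch cannot be told apart. The genotype label reads C57BL/6 WT for all 16 libraries, and the labels do not say whether the controls carry the floxed allele or Cre. Atf4 itself lies outside the rows held here, so the knockout was not checked in these libraries. The cardiomyocyte markers Tnni1, Tnnt2, Pln, Myl7 and Myl4 summed to between 12450 and 18401 TPM in every library, although one extraction text in the labels names cortical neurons. The rows held carried 15.2% to 17.1% of a library's TPM. TPM does not keep the number of reads, so the depth behind each value is unknown.

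Ppm1 proteins are serine and threonine phosphatases that need magnesium or manganese ions, and each removes phosphate from its own set of substrates. Ppm1d, also called Wip1, is induced by the tumour suppressor p53 and switches the DNA damage response off again by dephosphorylating p53, its activating kinases and the stress kinase p38. Ppm1e, also called POPX1 or CaMKP-N, acts on PAK kinases and on calmodulin-dependent kinases and is best known from neurons. Ppm1h removes the phosphate that the kinase LRRK2 places on Rab GTPases, the switches of membrane traffic.

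The window from 250 bases before to 50 bases after each RefSeq start site is shown because ATF4 and p53 are DNA-binding factors and the 3 windows differ in the motifs they hold. Sequences are from RefSeq on the mouse build GRCm38.p6, written 5′ to 3′ along the gene's strand. Capitals mark a cyclic AMP response element (CRE, TGACGTCA, bound by CREB and ATF family factors) and a p53 half-site.
Ppm1d, chr11:85311004-85311303, plus strand: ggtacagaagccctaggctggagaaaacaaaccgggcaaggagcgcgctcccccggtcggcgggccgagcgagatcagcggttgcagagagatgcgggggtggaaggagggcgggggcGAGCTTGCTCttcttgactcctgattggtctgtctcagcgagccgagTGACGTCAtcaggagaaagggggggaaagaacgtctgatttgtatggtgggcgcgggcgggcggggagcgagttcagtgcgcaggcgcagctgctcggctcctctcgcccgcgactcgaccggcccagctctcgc
Ppm1e, chr11:87358945-87359244, minus strand: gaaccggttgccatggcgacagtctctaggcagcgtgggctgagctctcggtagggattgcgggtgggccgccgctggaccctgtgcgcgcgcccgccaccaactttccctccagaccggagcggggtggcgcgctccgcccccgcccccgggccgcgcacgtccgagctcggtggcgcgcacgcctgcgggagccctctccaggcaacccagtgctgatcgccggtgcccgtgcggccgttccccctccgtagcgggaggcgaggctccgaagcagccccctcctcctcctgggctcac
Ppm1h, chr10:122678512-122678811, plus strand: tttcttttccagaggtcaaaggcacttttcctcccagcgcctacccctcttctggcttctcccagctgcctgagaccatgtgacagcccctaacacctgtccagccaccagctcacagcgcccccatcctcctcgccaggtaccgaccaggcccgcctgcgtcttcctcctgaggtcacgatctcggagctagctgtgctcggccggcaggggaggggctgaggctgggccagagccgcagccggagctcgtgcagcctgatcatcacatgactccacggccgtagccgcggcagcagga

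The Ppm1h window belongs to a start site downstream of the first base of its row in the table. The Ppm1d window held 1 full CRE, 85 bases before the start, and 1 p53 half-site, 132 bases before it. Both strands were searched for the CRE, its half-site TGACG (which lies inside the CRE), the C/EBP-ATF response element TGATGCAA and the p53 half-site. Neither the Ppm1e nor the Ppm1h window matched any of these, and the Ppm1d window did not match the C/EBP-ATF element. Among 32544 mouse promoter windows of the same length, 1.80% held the full CRE, 20.9% its half-site, 0.867% the C/EBP-ATF element and 8.36% a p53 half-site. A match describes letters and does not show that a factor binds. The windows were rich in G and C, at 66% for Ppm1d, 74.3% for Ppm1e and 64.7% for Ppm1h against a median of 53% over all windows, and they held 30, 36 and 17 CpG dinucleotides.

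Ppm1d (gene ID 53892, chromosome 11, 85311254 to 85347071, plus strand) was the most abundant of the genes, and its range overlapped between every pair of groups. In the exon 2-3 controls its TPM was 15.4, 13.4, 11.4 and 13.4 in replicates 1 to 4, and in the exon 2-3 cKO libraries 13.2, 14.6, 13.3 and 15.5. In the exon 2 line the controls gave 15.1, 14.5, 15.2 and 15.3 and the cKO libraries 15.4, 15.9, 15.5 and 15.2. The control and cKO values overlapped in both lines. Group means were 13.4 ± 1.62, 14.1 ± 1.10, 15.0 ± 0.383 and 15.5 ± 0.274 TPM (SD, n = 4) for exon 2-3 control, exon 2-3 cKO, exon 2 control and exon 2 cKO, and the ranges of neighbouring groups in this order overlapped. On the log2(TPM + 1) scale, on which the change of a low gene is understated, the cKO libraries were 0.075 above their controls in the exon 2-3 line (SE 0.094) and 0.042 above them in the exon 2 line (SE 0.059). The level was near the middle of the 2620 genes tested (those averaging 1 TPM or more), between the 46.9 and 48.0 percentiles in the 4 groups. Replicates were close together in the exon 2 line: the SD on the log2 scale was 0.0349 in the controls and 0.0238 in the cKO group, against all-gene medians of 0.113 and 0.118.

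Ppm1e (gene ID 320472, chromosome 11, 87226906 to 87358994, minus strand) separated the lines and not the genotypes. Its TPM in the exon 2-3 controls was 4.10, 4.43, 4.58 and 5.28 in replicates 1 to 4, and in the exon 2-3 cKO libraries 4.01, 4.40, 4.50 and 3.80. The exon 2 controls gave 6.86, 6.25, 8.82 and 7.82 and the exon 2 cKO libraries 7.29, 7.87, 8.15 and 8.11. Every exon 2 library was above every exon 2-3 library, while control and cKO values overlapped within each line. Means were 4.60 ± 0.500 and 4.18 ± 0.328 TPM for exon 2-3 control and cKO, and 7.44 ± 1.12 and 7.86 ± 0.397 TPM for exon 2 control and cKO (SD, n = 4). The difference between cKO and control was -0.11 in log2(TPM + 1) in the exon 2-3 line (SE 0.095) and 0.078 in the exon 2 line (SE 0.103).

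Ppm1h (gene ID 319468, chromosome 10, 122677428 to 122945795, plus strand) was the least abundant and the one whose exon 2-3 cKO libraries stood apart. The exon 2-3 controls had 2.62, 2.68, 2.33 and 2.24 TPM in replicates 1 to 4. The exon 2-3 cKO libraries had 0.151, 2.00, 0.150 and 0.129 TPM. The exon 2 controls had 3.62, 3.29, 4.05 and 3.82 TPM and the exon 2 cKO libraries 3.60, 3.87, 3.52 and 3.89. Replicates 1, 3 and 4 of the exon 2-3 cKO group were near 0, replicate 2 was just under the lowest control of its line, and the exon 2 groups overlapped.

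Group means of Ppm1h were 2.47 ± 0.214, 0.608 ± 0.930, 3.70 ± 0.324 and 3.72 ± 0.190 TPM (SD, n = 4) for exon 2-3 control, exon 2-3 cKO, exon 2 control and exon 2 cKO. The mean of the exon 2-3 cKO group describes none of its libraries. Replicates 1, 3 and 4 averaged 0.143 ± 0.0123 TPM (SD, n = 3), 5.80% of the control mean, so that the controls were 17.2-fold higher. Replicate 2 was 13.98 times the mean of the other cKO libraries and stood at 81.1% of the control mean. The difference in log2(TPM + 1) was -1.25 over all 4 cKO libraries (SE 0.289) and -1.60 without replicate 2. With a pseudocount of 0.1 in place of 1 it was -2.62. It was 0.0098 in the exon 2 line (SE 0.095), and the difference between the lines was -1.26 (SE 0.323). No p-value is attached, since these values chose the gene. Of the genes tested, 14.5% did not overlap between cKO and control in the exon 2-3 line and 1.83% did not in the exon 2 line. Ppm1h was 1 of the 139 genes, 5.31%, whose exon 2-3 cKO libraries all lay below all controls of the line.

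**Figure D1:**
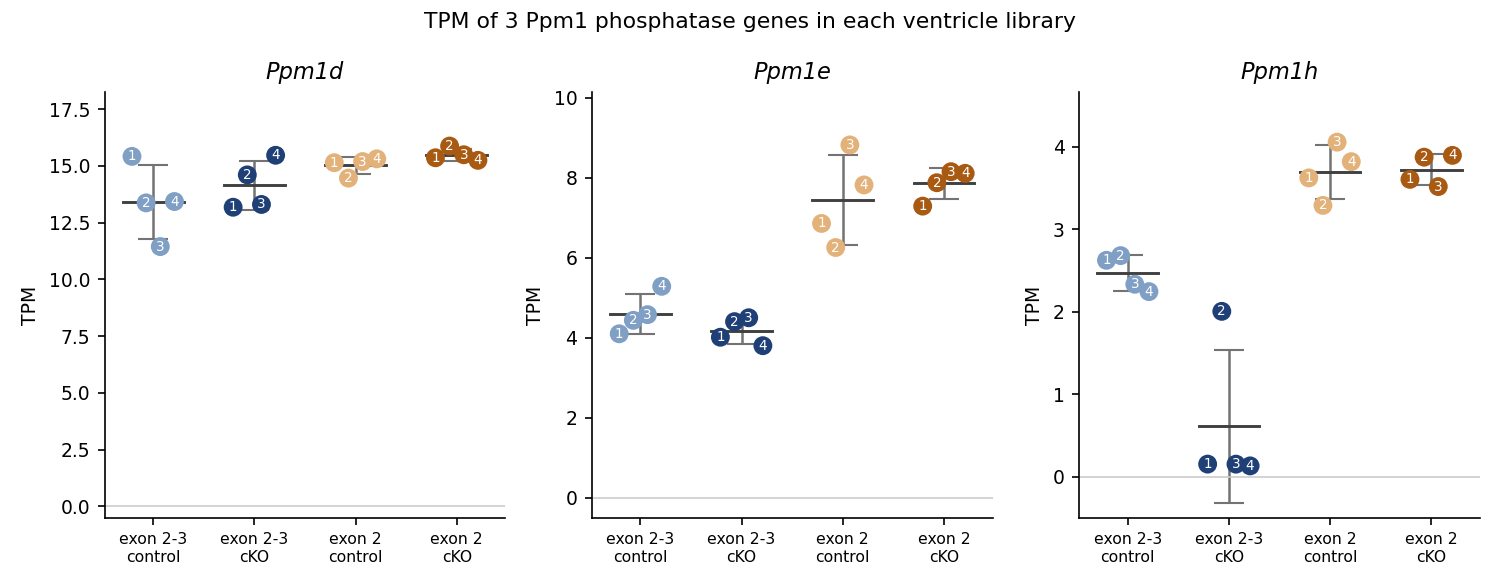
TPM (vertical axes, each with its own range, all including 0) of Ppm1d, Ppm1e and Ppm1h in the 4 groups; each circle is a library with its replicate number, horizontal bars are group means and whiskers 1 SD (n = 4). Ppm1d overlaps between all groups, Ppm1e is higher in every exon 2 library, and for Ppm1h exon 2-3 cKO replicates 1, 3 and 4 lie at 0.129 to 0.151 TPM while replicate 2 lies at 2.00, a split that makes the SD wider than the mean.

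The split within the exon 2-3 cKO group, taken from the values of Ppm1h, was looked for in all 2620 genes. The place of Ppm1h in the counts that follow comes from that choice and is a description. Counts for other sets of replicates against the rest were not made. Replicate 2 lay at least 1 log2 unit above the other cKO libraries of its group for 2 genes, Ppm1h and Wdfy1, and at least 1 unit below them for 4 genes. The corresponding counts in the other cKO libraries of that group were 3 or 4 above and 4 to 12 below, so replicate 2 held no more such genes than the others. Replicates 1, 3 and 4 lay below all 13 other libraries for 41 genes, and by at least 1 log2 unit for Ppm1h alone. In the mean of these replicates 2 genes were further below the controls than Ppm1h. The p53 target Ccng1, with 275 ± 11.3 TPM in the cKO group against 95.4 ± 1.91 in its controls (SD, n = 4), was as high in replicate 2 as in the rest. For Ppm1d replicate 2 lay 0.12 above the control mean in log2(TPM + 1) and the other cKO libraries 0.059 above it. For Ppm1e these values were -0.047 and -0.13. The spread of Ppm1h in this group, an SD of 0.697 in log2(TPM + 1), was at the 98.2 percentile of the genes. With Ppm1h itself counted, 47 genes had at least this spread.

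**Figure D2:**
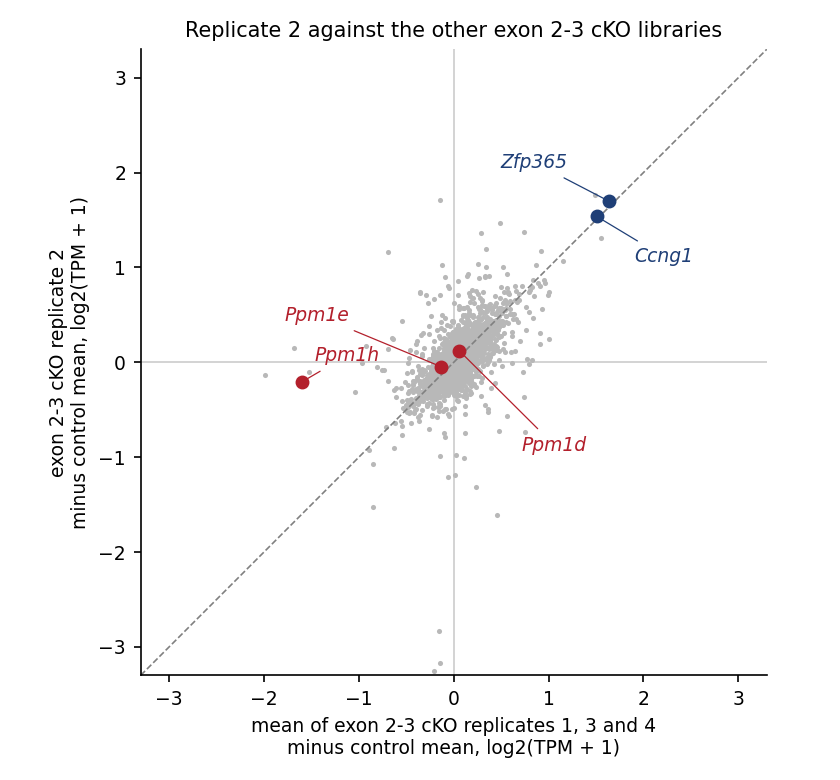
Difference from the exon 2-3 control mean in log2(TPM + 1) for 2620 genes (grey points), with the mean of exon 2-3 cKO replicates 1, 3 and 4 on the horizontal axis and replicate 2 on the vertical axis; the dashed line marks equal values. Ppm1h lies at -1.60 and -0.21, away from the dashed line, whereas Ccng1 and Zfp365 lie on it and Ppm1d and Ppm1e lie near 0 on both axes.

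Summed over the 3 genes, the group means were 20.5, 18.9, 26.2 and 27.1 TPM for exon 2-3 control, exon 2-3 cKO, exon 2 control and exon 2 cKO. Ppm1d made up 65.3%, 74.8%, 57.6% and 57.2% of this sum in the same order, and Ppm1e 22.6%, 22.2%, 28.3% and 29.0%. Ppm1h made up 12.1%, 2.98%, 14.1% and 13.7%, and within the exon 2-3 cKO group its share ran from 0.665% to 9.53%.

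The controls of the lines were compared with each other, a comparison the choice of genes did not use. Ppm1e was lower in the exon 2-3 controls than in the exon 2 controls, which were 1.62-fold higher in TPM. The difference was -0.59 in log2(TPM + 1) (SE 0.098, limma adjusted p = 0.000132), and all 4 exon 2-3 controls lay below all 4 exon 2 controls. For Ppm1h the exon 2 controls were 1.497-fold higher and again did not overlap with the exon 2-3 controls. Its difference of -0.44 (SE 0.229) did not pass the test over all 16 libraries, where the wide cKO group enters the error (limma adjusted p = 0.122). In a fit on the 8 control libraries, chosen after seeing the data, the SE was 0.101 and the adjusted p 0.00467. For Ppm1d the difference was -0.16 (SE 0.076, limma adjusted p = 0.0897), the groups overlapped, and the sign turned under quantile normalisation (0.025) and under centring on the library median (0.022).

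Differences of this kind were common. In the limma test 52.6% of the 2620 genes differed between the control groups, 38.1% being lower in the exon 2-3 controls, and 45.5% did not overlap (32.6% with the exon 2-3 controls lower), so 1 of 3 genes passing and 2 of 3 not overlapping were near the background. The all-gene median was -0.14, moving to -0.051 under quantile normalisation and 0.041 under median centring, and the share of differing genes that were higher in the exon 2-3 controls moved from 27.5% to 39.9% and 57.7%. Relative to that shift Ppm1e kept its direction, at -0.50 and -0.41. Ppm1h also kept its direction, at -0.33 and -0.26, and passed the limma test over 16 libraries under neither scaling (adjusted p = 0.203 and 0.385). Of all genes, 8.28% had a lower value than Ppm1e, 16.8% a lower value than Ppm1h and 47.4% a lower value than Ppm1d. Several summed marker lists moved with the same split. The neuronal markers Map2, Kif1a, Syt1, Nefh and Gria1 together gave 3.12 to 4.69 TPM in the exon 2-3 line and 5.70 to 8.05 TPM in the exon 2 line. The cardiomyocyte markers gave 16456 to 18401 TPM in the exon 2-3 line and 12450 to 14531 TPM in the exon 2 line. Epicardial and mesenchymal markers gave 256 to 291 TPM in the exon 2-3 controls and 385 to 548 TPM in the exon 2 controls. Not every member followed its sum. Mean Dcn was 46.0 TPM in the exon 2-3 controls and 39.2 in the exon 2 controls, and mean Pln 624 and 656, both opposite to their sums. Dcn, Pln, Tcf21, Myl7, Syt1 and Nefh overlapped between the control groups. The endothelial, erythroid, myeloid and neural crest and Schwann sums overlapped between the control groups, but some of their members did not. The endothelial marker Prox1 gave 13.9 to 17.97 TPM in the exon 2-3 controls and 20.1 to 27.4 TPM in the exon 2 controls. In the same order the myeloid marker Cd68 gave 2.19 to 4.28 and 4.93 to 6.42 TPM. Erbb3, of the neural crest and Schwann sum, gave 3.72 to 6.82 and 7.11 to 9.63 TPM. Cd34, Ramp2, Ptprc, Fcer1g, Pmp22 and the erythroid markers overlapped. The part of these markers in the levels of Ppm1e and Ppm1h was not tested.

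**Figure D3:**
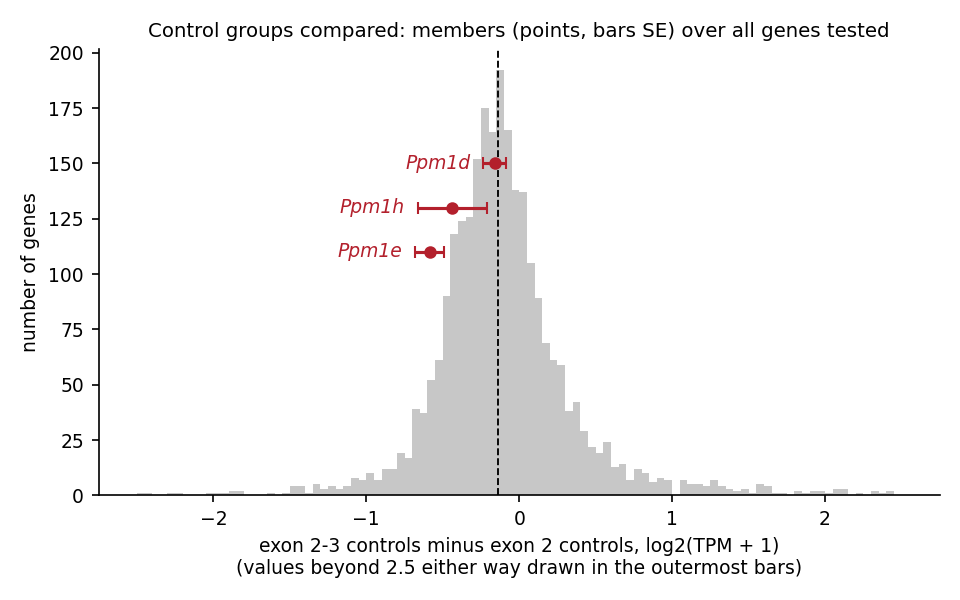
Number of genes (vertical axis, grey bars) by the difference between exon 2-3 and exon 2 controls in log2(TPM + 1), with the all-gene median dashed at -0.14; red points with SE bars give Ppm1d (-0.16), Ppm1e (-0.59) and Ppm1h (-0.44), whose heights in the plot carry no meaning. Ppm1d sits at the median, and Ppm1e and Ppm1h on the lower side of the distribution.

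Rows that overlap a gene can share its reads, and the strand setting of the counting is not given in the sources used here. Ppm1d overlapped no other row, and its nearest neighbour on the same strand, Bcas3, begins 6038 bases after it. Bcas3 had 6.86 ± 1.72 TPM in the exon 2-3 controls and 6.94 ± 2.05 in the cKO group (log2 difference 0.0058, limma adjusted p = 0.992). Ppm1e is overlapped on the opposite strand by Trim37, a ubiquitin ligase gene, and 6127 of its 6702 exonic bases lie within the span of Trim37, with no exon base shared in GENCODE M21. Trim37 was also lower in the exon 2-3 controls, at 20.8 ± 1.03 against 23.9 ± 0.859 TPM (SD, n = 4; log2 difference -0.19, limma adjusted p = 0.00835). Another row on the opposite strand, Gm33937, averaged 0.393 TPM over the 16 libraries, and 575 exonic bases of Ppm1e lie within its span. Gm33937 is not in GENCODE M21, so exon bases shared with it were not counted. The same-strand row Gm22883 inside Ppm1e was at 0 TPM. The values of Ppm1e are uncertain to the extent of these overlaps.

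Ppm1h shares exon sequence on its own strand with the microRNA row Mir8104 (chromosome 10, 122679315 to 122679415), which lies inside the first exon of 2 coding Ppm1h transcripts. Mir8104 had 1.54, 2.38, 1.46 and 3.54 TPM in the exon 2-3 controls and 3.34, 1.12, 1.24 and 0.518 in the cKO libraries. Its highest cKO value was in replicate 1, where Ppm1h was at 0.151 TPM, and replicate 2 did not stand out. The log2 difference was -0.40 (SE 0.308, limma adjusted p = 0.497). The remaining rows that overlap Ppm1h, Gm36284, Gm36208, Gm51817 and Gm51818, averaged at most 0.0844 TPM.

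Rad51c, a homologous recombination gene 17650 bases from Ppm1e on the same strand, was lower in the exon 2-3 cKO libraries. It lies on chromosome 11, away from Ppm1h on chromosome 10, and Ppm1e itself overlapped between cKO and control. Rad51c had 8.11, 8.32, 8.12 and 9.03 TPM in the exon 2-3 controls and 6.28, 7.17, 5.47 and 6.31 in the cKO libraries, with no overlap. The log2 difference was -0.37 (SE 0.088, limma adjusted p = 0.0368), and 2.56% of all genes tested were lower in that comparison. The call was lost in 6 of 8 fits that left out a library, with adjusted p up to 0.108.

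Likeness of pattern was measured as Pearson's r of log2(TPM + 1) over the 16 libraries after subtracting the mean of each line. For Ppm1h the most similar genes were Nuf2, a kinetochore gene (r = 0.857), Rad51c (0.843) and Ddc, which encodes aromatic amino acid decarboxylase (0.839). Without exon 2-3 cKO replicate 2, an alternative chosen after seeing the data, these were 0.940, 0.868 and 0.855. Nuf2 then stayed the most similar gene, and Rad51c and Ddc were no longer among the first 3. Nuf2 had group means of 33.2, 24.9, 36.3 and 37.2 TPM, and Ddc 62.9, 46.2, 54.7 and 57.4 TPM, for exon 2-3 control, exon 2-3 cKO, exon 2 control and exon 2 cKO. For Ppm1d they were Reps1 (0.867), Rps6kc1 (0.850) and Map2k4 (0.847). For Ppm1e they were Tmem26 (0.783), Timp3 (0.742) and Smt3h2-ps4 (0.737). Among the phosphatases themselves r was -0.181 for Ppm1d with Ppm1e, -0.116 for Ppm1d with Ppm1h and 0.384 for Ppm1e with Ppm1h. All genes of a library share its TPM scaling, and these values are descriptions.

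**Figure D4:**
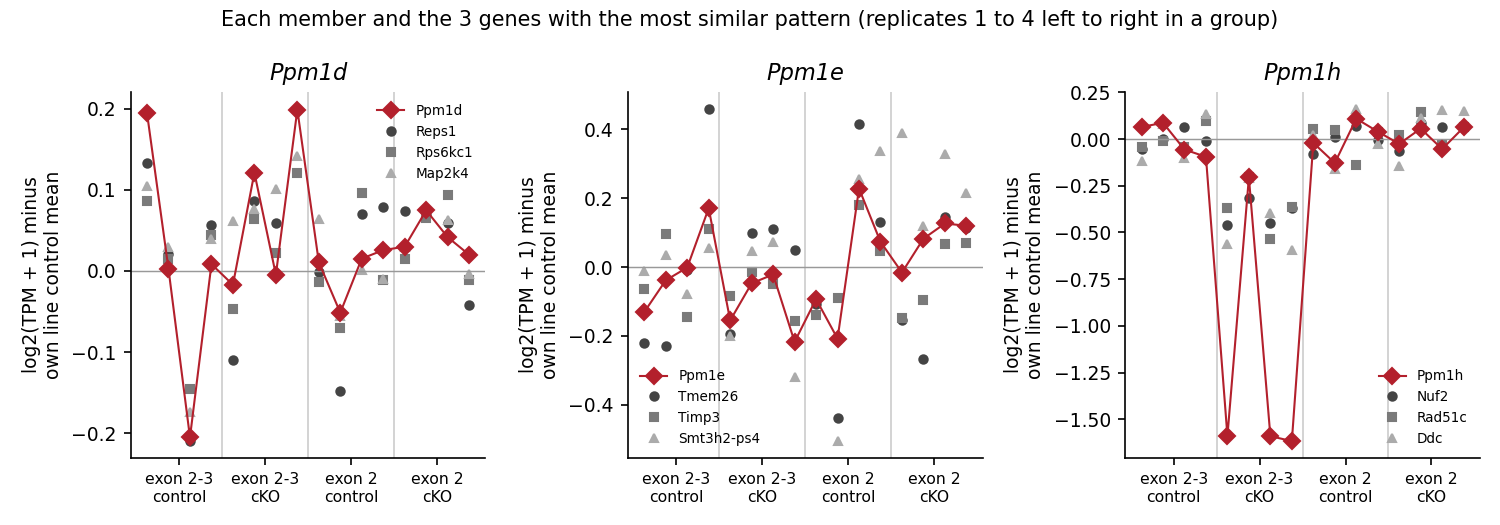
log2(TPM + 1) minus the mean of the controls of the same line (vertical axes) for Ppm1d, Ppm1e and Ppm1h (red diamonds) and the 3 genes most like each (grey symbols), in the 16 libraries ordered by group along the horizontal axis. Nuf2, Rad51c, Ddc and Ppm1h all lie below 0 in the exon 2-3 cKO libraries; Ppm1h is beside the others in replicate 2, at -0.21, and far below them in replicates 1, 3 and 4.

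Most of the p53 circuit genes listed around Ppm1d rose in the exon 2-3 line, where the values of Ppm1d overlapped between cKO and control. Of 14 listed genes in the table, 10 were higher in the exon 2-3 cKO libraries and 0 lower in the limma test, against 4.16% of all genes higher. The list was written with earlier results of these data known, so its counts here and between the lines are descriptions. The median log2 difference was 0.57, against 0.032 over all genes. They were Ccng1 (1.52, adjusted p = 5.32e-08), Zfp365 (1.65), the Akt inhibitor Phlda3 (1.13), the antiproliferative gene Btg2 (0.82), the repair nuclease gene Ercc5 (0.81), the phosphatase gene Ptpn14 (0.68), Ddit4 (0.60), the desmosomal p53 target Perp (0.54), the apoptosome gene Apaf1 (0.53) and Mdm2, the ubiquitin ligase that degrades p53 (0.35). Mdm2 went from 37.7 ± 3.41 to 48.2 ± 4.12 TPM (SD, n = 4; SE 0.082, limma adjusted p = 0.0361). Trp53, encoding p53, had 77.7 ± 9.54 TPM in the controls and 84.2 ± 6.99 in the cKO group (log2 difference 0.12, adjusted p = 0.484), and its inhibitor Mdm4 27.2 ± 0.997 and 26.8 ± 1.67 (-0.019, adjusted p = 0.897). Sesn1, a p53 target that restrains the growth kinase mTORC1, had 18.3 ± 1.22 and 16.7 ± 1.01 TPM (-0.12, adjusted p = 0.368), and Igfbp3, which binds insulin-like growth factors, 16.4 ± 2.37 and 15.1 ± 1.47 (-0.11, adjusted p = 0.623). Apaf1, Ptpn14 and Mdm4 in this list, and Spag9, Map2k4 and Ilkap in the lists that follow, overlap other rows and are uncertain.

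In the exon 2 line 0 of the 14 p53 circuit genes passed the limma test, 1 had an unadjusted p under 0.05, and 0.0763% of all genes passed. The list median there was 0.012. In the test of the difference between the lines 8 of the 14 were higher in the exon 2-3 line, against 1.6% of all genes, with a list median of 0.55. For Ppm1d the difference between the lines was 0.033 (SE 0.107), given without a test. Between the control groups 5 of the 14 were lower in the exon 2-3 controls, near the 38.1% of all genes that were lower there, and 0 were higher, but the split became 4 lower and 2 higher under quantile normalisation and 1 lower and 2 higher under median centring.

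**Figure D5:**
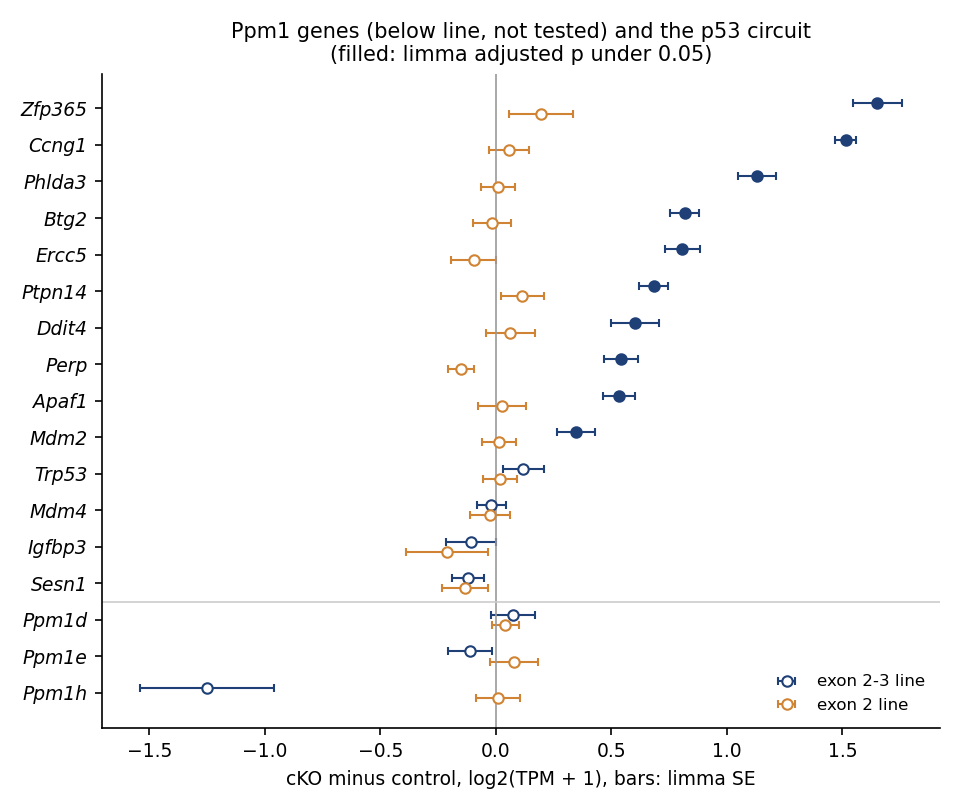
cKO minus control in log2(TPM + 1) with limma SE (horizontal axis) for the 3 Ppm1 genes, below the grey line and not tested, and 14 p53 circuit genes, in the exon 2-3 line (blue) and the exon 2 line (orange); filled points passed the limma test. Blue points of 10 genes lie at 0.35 to 1.65, Ppm1d lies at 0.075 and Ppm1h at -1.25.

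Of the DNA damage and p38 kinase genes whose products lie around Ppm1d, 4 of 23 listed were in the table. Map3k5, a kinase upstream of p38, fell from 14.04 ± 0.692 to 11.4 ± 0.492 TPM in the exon 2-3 line (SD, n = 4; log2 difference -0.27, SE 0.066, limma adjusted p = 0.0384). The call was lost in 7 of 8 fits that left out a library, with adjusted p up to 0.118. None passed the limma test in the exon 2 line, and 0 had an unadjusted p under 0.05. Map3k5 and Map2k4 were lower in the exon 2-3 than in the exon 2 controls, where 38.1% of all genes were lower, a count of 2 of 4 that became 0 under quantile normalisation, while under median centring Map3k5 did not pass and Map2k4 was higher.

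Around Ppm1h, 8 of 29 listed genes of the LRRK2 and Rab circuit were in the table. In the exon 2-3 line 0 passed the limma test and 1 had an unadjusted p under 0.05, Spag9, which encodes the motor adaptor JIP4 (28.9 ± 0.584 against 24.6 ± 2.15 TPM, SD, n = 4; log2 difference 0.23, adjusted p = 0.0845). Under quantile normalisation and under median centring 1 passed. The list ran from -0.11 to 0.23 with a median of 0.052. None passed in the exon 2 line, where 0 had an unadjusted p under 0.05. Between the control groups 6 of 8 were lower in the exon 2-3 controls, against 38.1% of all genes (4 lower and 1 higher under quantile normalisation, 3 lower and 1 higher under median centring). The lowest was again Spag9, with 24.6 ± 2.15 against 53.2 ± 5.46 TPM (log2 difference -1.08, limma adjusted p = 1.79e-08).

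Around Ppm1e, 9 of 34 listed PAK, calmodulin-dependent kinase and AMPK genes were in the table and 8 were tested. In each line 0 passed the limma test and 0 had an unadjusted p under 0.05, with a median of -0.021 in the exon 2-3 line. Between the control groups 3 of 8 were lower in the exon 2-3 controls, near the 38.1% of all genes (2 lower and 1 higher under quantile normalisation, 1 lower and 1 higher under median centring). Git1, a scaffold that binds the PAK exchange factor PIX, had 40.2 ± 5.36 against 56.7 ± 1.81 TPM (SD, n = 4; log2 difference -0.49, limma adjusted p = 0.000150). Of 17 relatives of the metal-dependent phosphatase family, 2 were in the table. Phlpp1, which dephosphorylates Akt, was among the genes lower in the exon 2-3 controls, with 9.20 ± 0.834 against 13.1 ± 0.836 TPM (SD, n = 4; -0.46, adjusted p = 6.29e-05). Ilkap had 68.1 ± 7.70 and 64.7 ± 3.60 TPM there, and neither gene passed in either line, nor had an unadjusted p under 0.05.

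In whole ventricle, fewer cells of a type and less RNA per cell cannot be told apart. Beside the exon 2-3 results, the summed epicardial and mesenchymal markers (Col3a1, Tcf21, Lum, Dcn and Col1a1) were 256 to 291 TPM in the exon 2-3 controls and 395 to 432 in the cKO libraries. Lum overlapped between these groups, and the other members of this sum did not. The neural crest and Schwann markers Erbb3 and Pmp22 together gave 42.0 to 50.1 and 57.6 to 65.5 TPM. Of these, Pmp22 separated (38.3 to 45.3 against 52.6 to 57.6 TPM) and Erbb3 overlapped (3.72 to 6.82 against 3.70 to 8.11). Both sums overlapped between control and cKO in the exon 2 line. Some markers fell without overlap in the exon 2-3 line, although the sums they belong to overlapped. The cardiomyocyte marker Tnni1 gave 2772 to 3252 TPM in the controls and 1556 to 2743 in the cKO libraries. In the same order the neuronal marker Nefh gave 0.552 to 1.17 and 0.252 to 0.516 TPM. Map2, also neuronal, gave 0.104 to 0.124 and 0.0506 to 0.0951 TPM. Tnni1, Nefh and Map2 overlapped in the exon 2 line. Erythroid markers (Hba-x, Hba-a1, Hba-a2 and Slc4a1) ran from 1512 to 11293 TPM among the exon 2-3 cKO libraries, with 5915 in replicate 2 and 1541, 1512 and 11293 in replicates 1, 3 and 4, so replicate 2 was within the range of the others. The part of these markers in the values of Ppm1h was not tested.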

How the data were processed

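Values are the TPM the authors deposited in 1 table for all 16 libraries, of which rows on chromosomes 1, 10 and part of 11 are held here. 1 incomplete last line was left out. The submitters' processing notes name FastQC, Trim Galore 0.6.7, HISAT2 2.2.1, StringTie 2.2.1, featureCounts, DESeq2 and GRCm38, and the tool that made the TPM is not given in the sources used here. Tests used limma 3.58.1 in R 4.3.3 on log2(TPM + 1), with an intensity trend, two-sided, over 2620 genes averaging 1 TPM or more, and Benjamini-Hochberg adjustment at 0.05. Effects within a line used its 8 libraries. The difference between lines and the control comparison came from 1 fit over 16. The fit was checked on simulated data. P-values measure the spread between these libraries. Members and lists were chosen with earlier results of these data known. Named genes are the members, rows overlapping or nearest to them, the 3 most similar genes, and list genes passing a test (at most 6 per list and comparison by adjusted p, with the other p53 genes that passed, Trp53, Mdm4, Sesn1 and Igfbp3 added after their values were seen). Alternatives were other pseudocounts, filters and scalings, a replicate block and leaving out each library. Coordinates of 5919 of 5921 rows matched RefSeq.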

Additional observations from a re-analysis of the deposited data

Results flagged for a closer look

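Among 32 group values checked for a library far from its group (chance flags about 1 in 20), 2 were flagged, which is near the chance rate. For Ppm1h in the exon 2-3 cKO group, the gap between replicate 2 and the nearest other library took up 0.988 of the group's range of log2(TPM + 1). Those values chose the gene, so this flag is a description and no test. For Rad51c in the exon 2 controls, the gap of the lowest library, replicate 3 at 7.15 TPM, took up 0.918 of the range. Of the 8 p53 circuit genes passing the limma test of the difference between the lines, the 6 with the smallest adjusted p are given here. In them the cKO effect differed between the lines. Its excess in the exon 2-3 line was 1.46 for Ccng1, 1.45 for Zfp365, 1.12 for Phlda3, 0.90 for Ercc5, 0.84 for Btg2 and 0.69 for Perp in log2(TPM + 1), with adjusted p of 1.82e-07, 4.41e-05, 2.30e-05, 0.000519, 0.000203 and 0.000337, and line and batch coincide.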

How the results depend on the processing

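The table is held in part, TPM keeps no depth, and line and batch coincide. Against 176 genes passing in the exon 2-3 line, 95 passed with no filter on low values, 305 under quantile normalisation and 343 under median centring, of which 50.8% and 41.4% were higher (61.9% in the fit reported). Leaving out 1 library gave 70 to 190, a move of over 1.5 times without control replicate 1 (80) or 2 (95) or without cKO replicate 1 (95), 2 (93), 3 (70) or 4 (100). In the exon 2 line 2 passed, 4 in 1 fit over all 16 libraries and 2 to 4 leaving out 1. The difference between lines (62) gave 133 under quantile normalisation and 127 under median centring, of which 53.4% and 52.0% were higher (67.7% reported), and 36 to 84 leaving out 1, with the lowest counts without exon 2 cKO replicate 2 (36) or 4 (38), exon 2 control replicate 4 (37) or exon 2-3 cKO replicate 3 (41). The control comparison (1377) gave 1190 to 1401. With a pseudocount of 0.1 the Ppm1h difference was -2.62 in the exon 2-3 line and -2.63 between the lines. A minimum mean TPM of 5 leaves Ppm1h out. Between the controls Ppm1d reversed under quantile normalisation (0.025) and median centring (0.022), Map2k4 under median centring (0.038). Leaving out 1 library gave -0.22 to -0.091 for Ppm1d, past the threshold without exon 2-3 control replicate 1 (adjusted p = 0.0191), and -0.48 to -0.40 for Ppm1h, past it without exon 2-3 cKO replicate 2 (adjusted p = 0.000817). The cause of the reversals was not tested. In the exon 2-3 line leaving out 1 library gave 0.0061 to 0.14 for Ppm1d, -0.15 to -0.053 for Ppm1e and -1.60 to -1.13 for Ppm1h. List counts between the controls changed for the p53 circuit (5, then 3 under median centring, 2 with the replicate block and 3 to 6 leaving out 1, 3 being without exon 2 control replicate 1), the p38 genes (2, then 0 under quantile normalisation, 1 under median centring, with the block and in the fit on 8 control libraries, and 1 to 2 leaving out 1) and the phosphatase relatives (1, then 2 under median centring). In the exon 2-3 line the p38 count of 1 became 0 with the block and 0 to 1 leaving out 1, and the Rab count of 0 became 1 under quantile normalisation and under median centring. Exon 2-3 control and cKO libraries of the same number correlated at -0.0287, 0.053, -0.0063 and 0.211, and those of different numbers at -0.2962 to 0.1985. For exon 2 libraries same-number values were 0.0982, 0.166, 0.200 and 0.0639, and different-number values ran from -0.1172 to 0.0792. The same-number value was the highest for exon 2 control replicates 1, 2 and 3, but among exon 2-3 controls for replicate 4 alone. Whether a shared number marks a pair was not tested. With the replicate block 149 genes passed for exon 2-3 cKO against control and 2 for exon 2 cKO against control. Between the lines 68 passed, and between the controls 1080. For the control comparison the block was fitted on the 8 control libraries. It joined controls of the same number from different lines and batches, which correlated at -0.145, -0.224, -0.0247 and -0.1286. In that fit the control difference of Ppm1h was -0.44 with a limma adjusted p of 0.0253. Without the block these libraries, in a fit added after seeing the data, gave -0.44 with 0.00467. Both fits leave out the wide exon 2-3 cKO group.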
